A study of Mus musculus with 3 samples.

Results

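Among the endothelial cell barcodes of the GFP-positive library, 245 carried both Vwf and Rspo3 RNA and are described here as Vwf Rspo3 barcodes. They were chosen from their own counts in 3300 barcodes with at least 500 genes. A member had at least 4 UMIs (unique molecular identifiers, counted transcripts) of Pecam1 and Cdh5 together, at least 5 of Vwf, at least 2 of Rspo3 and under 5 of Gkn3. The first of these conditions was met by 2509 barcodes, called endothelial here, so that the members were 245 of 2509 (9.76%, exact Clopper-Pearson 95% interval 8.63% to 10.99%). Vwf alone passed in 1264 of the 2509 and Rspo3 alone in 354. The other 2264 endothelial barcodes are the set against which the members are described. The whole series held 7633 barcodes with at least 500 genes.

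The study profiled single cells of ICR mice of genotype HCN4H2BGFP at postnatal day 2 with 10x Genomics libraries. In these animals a green fluorescent protein tied to histone H2B reports the pacemaker channel gene Hcn4 from a knock-in allele, which all 3 libraries share. One library came from GFP-positive cells and one from GFP-negative cells of the sinoatrial node region, separated by flow cytometry, and the third was unsorted. The unsorted library is titled RA although its tissue is also given as sinoatrial node region, and it is called RA here. The number of animals in a library was not given in the labels. Each group was 1 library, so no test of any difference was possible, and every interval covers counting error only.

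Von Willebrand factor, the product of Vwf, is a large adhesive glycoprotein that endothelial cells store in Weibel-Palade bodies and release to capture platelets. It is commonly more abundant in veins and larger vessels than in capillaries. R-spondin 3, the product of Rspo3, is a secreted protein that raises the response of a cell to Wnt ligands: it binds LGR receptors and the membrane E3 ligases RNF43 and ZNRF3, which otherwise remove Frizzled receptors from the surface. Endothelial cells of several organs are a source of R-spondin 3.

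The GFP-positive library held 50416748 UMIs in 3346 barcodes, the GFP-negative library 38204709 in 3276 and the RA library 19975326 in 1450. Endothelial barcodes made up 76.0% of the barcodes with at least 500 genes in the GFP-positive library, 6.23% in the GFP-negative library and 19.4% in RA. GFP RNA stood at 43.3 CPM (counts-per-million of the summed UMIs) in endothelial barcodes of the GFP-positive library, against 3.47 CPM in GFP-negative and 0.901 CPM in RA. Hcn4 itself was read at 1.73 CPM in those endothelial barcodes and was at 0 in the endothelial barcodes of the other two libraries. In the Vwf Rspo3 barcodes, GFP was at 43.2 CPM (36.4 to 50.8) and Hcn4 at 0.893 CPM, and the 2 other reporter features were at 0. The GFP level of the other endothelial barcodes was 43.3 CPM, so the reporter RNA did not separate the members from the rest. The libraries shared 18, 7 and 8 barcode sequences pairwise, and none of the members' barcodes was among them.

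The members had a median of 11998 UMIs (5244 to 46815) and 3515 genes, and the other endothelial barcodes 11914.5 UMIs and 3396 genes. Mitochondrial UMIs had a median of 3.61% and 2.997%. All 13 measured genes of a 14-gene pan-endothelial list except Cldn5 lay within 2-fold of the other endothelial barcodes, with a median log2 ratio of 0.23, and that list holds Pecam1 and Cdh5, which the rule used. Pecam1, an adhesion molecule of endothelial junctions, was at 977 CPM and Cdh5, the cadherin of those junctions, at 440 CPM.

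Of the 5 genes given as markers of these cells, Vwf and Rspo3 chose the members and their values are a description. Vwf ran from 5 to 68 UMIs per member with a median of 13, and summed to 1107 CPM (exact Poisson 95% interval 1072 to 1144) against 471 CPM in the other endothelial barcodes. Rspo3 ran from 2 to 44 UMIs with a median of 5, and summed to 507 CPM (484 to 532) against 27.3 CPM (25.6 to 29.1). Both sets overlapped in single barcodes, since another endothelial barcode reached 79 UMIs of Vwf and another reached 48 of Rspo3. The members held 60.8% of the 2803 Rspo3 UMIs of their library.

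**Figure D1:**
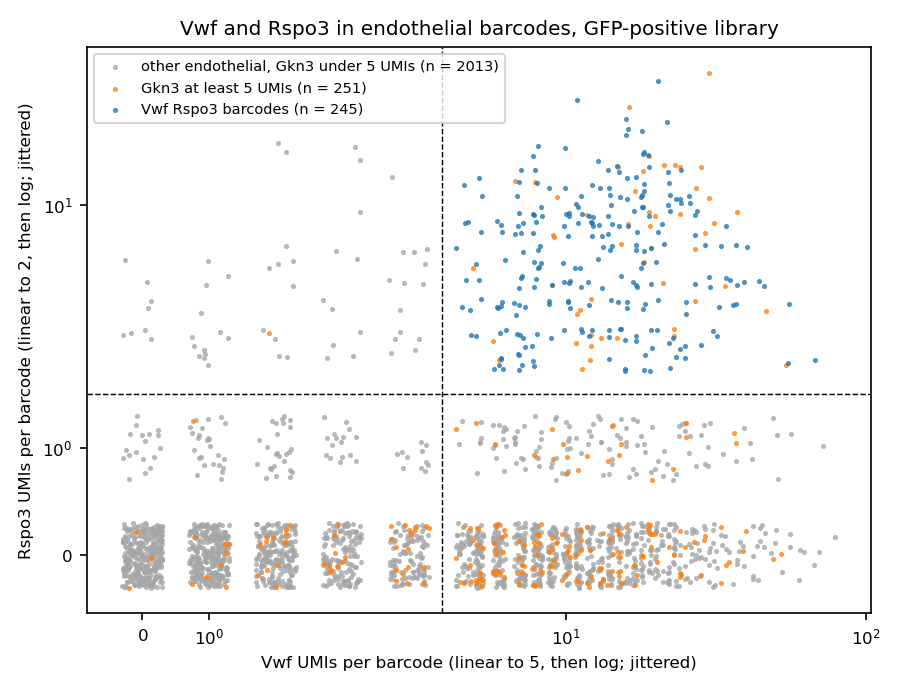
Each point is 1 endothelial barcode of the GFP-positive library, placed by its Vwf UMIs (x axis) and Rspo3 UMIs (y axis), both linear near 0 and logarithmic above, with a small random offset. Dashed lines mark the limits of 5 Vwf and 2 Rspo3 UMIs; the 245 members lie above both, together with barcodes left out for at least 5 Gkn3 UMIs (orange).

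Calcrl and Aqp1, which the rule did not use, were both higher in the members. Calcrl encodes the receptor that binds adrenomedullin or CGRP once paired with a RAMP protein. Among members it ran from 0 to 3302 CPM in single barcodes with a median of 672 CPM, and among the others from 0 to 2635 CPM with a median of 178 CPM. Its summed level was 735 CPM (706 to 764) against 267 CPM (262 to 273), a ratio of 2.75. Aqp1, a water channel, ran from 0 to 4151 CPM with a median of 1148 CPM in members and from 0 to 5224 CPM with a median of 281 CPM in the others. It summed to 1237 CPM (1200 to 1275) against 463 CPM, a ratio of 2.67. The single-barcode ranges overlapped for both genes while the lower quartile of the members lay above the median of the others (417 CPM for Calcrl, 743 CPM for Aqp1).

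Cldn11, a tight-junction claudin, did not pass a 2-fold ratio of summed levels. It was at 373 CPM (353 to 394) against 261 CPM (256 to 266), a ratio of 1.43. Its single-barcode values ran from 0 to 2594 CPM in members and from 0 to 6268 CPM in the others, so the highest Cldn11 barcodes were not members. The medians lay further apart than the sums, at 234 CPM in members and 30.2 CPM in the others. Thus 4 of the 5 given markers, 2 of them used by the rule, were past 2-fold in summed level, and Cldn11 was not.

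Nearly every member carried both Calcrl and Aqp1: 243 of 245 (99.2%, 97.1% to 99.9%) had a UMI of each, against 1526 of 2264 (67.4%) of the others. With Cldn11 as well, the counts were 191 of 245 (78.0%) and 780 of 2264 (34.5%). After each barcode was thinned to 5000 UMIs, which left out no member and 42 of the others, Calcrl was read in 93.1% of members and 58.8% of the others, and Aqp1 in 97.1% and 66.5%. In the 262 barcodes of the library without a UMI of Pecam1 or Cdh5 (median 12197 UMIs), the thinned shares were 10.3% for Calcrl and 59.1% for Aqp1. The Calcrl share of those barcodes was far below both endothelial sets, whereas Aqp1 was read in most of them.

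Across all genes, 5755 had a mean of at least 20 CPM over the members and the other endothelial barcodes. Past 2-fold, 86 of them (1.49%) were higher in the members and 107 (1.86%) were lower, and the median log2 ratio over all 5755 was 0.06. These shares are the background for every count of list genes below. Of the 84 named genes past 2-fold, 20 were short of it or turned in at least 1 of 11 alternative settings, among them Wnt2, Ackr3, Meox2, Cyp1b1, Tmem108, Sfrp1, Col8a1, Igf2r and Ccnb2. The same counts chose the members, so list counts describe the barcodes and are not tests.

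Several genes of the Wnt system were higher in the members. Of 11 genes in the list of R-spondins and Wnt ligands, 3 were measured and all 3 were past 2-fold higher, Rspo3 being one of them by the rule. Wnt9b, a Wnt ligand of the endocardium among other sites, was at 39.0 CPM (32.6 to 46.3) against 9.02 CPM, a ratio of 4.33, and was read in 28.6% of members and 6.63% of the others. Wnt2 was at 94.0 CPM (84.0 to 105) against 44.3 CPM, a ratio of 2.13. Wnt16, which was not on the list and was chosen after its values were seen, was at 72.3 CPM (63.5 to 82.0) against 9.43 CPM, a ratio of 7.67. The highest single barcode held 24 Wnt16 UMIs among members and 26 among the others.

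Wnt16 and Wnt9b were each carried by a minority of the members, whereas Wnt2 was read in 54.3% of members and 31.9% of the others. A UMI of Wnt16 or Wnt9b was present in 100 of 245 members (40.8%, 34.6% to 47.3%) and in 226 of 2264 others (9.98%, 8.78% to 11.3%), and both in 23 members (9.39%). Thinned to 5000 UMIs, Wnt16 was read in 13.5% of members and 2.70% of the others, and Wnt9b in 15.5% and 3.38%. Among barcodes without Pecam1 or Cdh5 the thinned shares were 0.397% for Wnt16 and 0 of 252 for Wnt9b. The other R-spondins were scarce in the members: Rspo1 was at 8.33 CPM, and Rspo2 and Rspo4 were at 0.

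For Wnt16 and Wnt9b, the 250 bases before the start sites are shown, from RefSeq on GRCm38.p6 (the counts themselves were made on mm9). Wnt16 lies on the plus strand with this window at chr6:22287977-22288226, and Wnt9b on the minus strand at chr11:103749822-103750071. Capitals mark the letters CCAAT on either strand, the CCAAT box of many promoters.

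Wnt16: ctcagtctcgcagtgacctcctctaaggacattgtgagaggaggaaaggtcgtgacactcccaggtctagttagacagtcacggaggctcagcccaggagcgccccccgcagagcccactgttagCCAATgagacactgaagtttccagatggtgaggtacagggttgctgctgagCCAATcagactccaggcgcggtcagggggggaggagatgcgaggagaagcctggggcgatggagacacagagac

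Wnt9b: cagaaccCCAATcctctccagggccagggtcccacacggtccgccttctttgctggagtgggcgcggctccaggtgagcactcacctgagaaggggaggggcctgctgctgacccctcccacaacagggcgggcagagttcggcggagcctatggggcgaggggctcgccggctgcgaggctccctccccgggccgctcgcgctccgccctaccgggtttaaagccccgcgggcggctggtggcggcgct

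The letters CCAAT were found at 2 places in the Wnt16 window and at 1 in the Wnt9b window, and 33.8% of 32851 promoter windows of this length hold them on one strand or the other. Neither window held AGATAA, a sequence bound by GATA factors, which 9.99% of the windows hold, nor CTTTGA, the core of TCF/LEF sites, which 13.8% hold. The promoters of Calcrl, Aqp1 and Cldn11 held neither of these last 2 motifs. Rspo3 and Vwf had no entry in the table. A match here describes letters only.

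On the receptor side, 5 of 13 genes were measured, and none passed 2-fold in either direction (median log2 ratio 0.34). Frizzled 4 (Fzd4) was at 78.0 CPM against 63.4 CPM, and the co-receptors Lrp5 and Lrp6 were at 41.1 and 47.9 CPM against 31.0 and 38.0 CPM. The R-spondin receptor Lgr4 lay below the level filter, at 19.6 CPM (15.2 to 24.99) against 9.46 CPM, and Lgr5 was at 0 in the members. Rnf43, the ligase that R-spondins remove and itself a Wnt target in many tissues, was also below the filter. It was at 17.3 CPM (13.1 to 22.3) against 1.32 CPM (0.961 to 1.76), a UMI being present in 46 of 245 members (18.8%) and 38 of 2264 others (1.68%). Its homologue Znrf3 was at 7.14 CPM against 4.07 CPM.

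Of 14 inhibitors and targets of Wnt signalling, 4 were measured, and 2 were past 2-fold lower (median log2 ratio -0.75). The secreted inhibitor Dkk2 was at 9.82 CPM (6.76 to 13.8) against 51.2 CPM, and Sfrp1, which binds Wnt ligands, at 111 CPM against 238 CPM. Nkd1, an intracellular antagonist that is also induced by Wnt signalling, was at 64.3 CPM (56.0 to 73.5) against 33.6 CPM, a ratio of 1.92. Axin2, another common target, was at 5.95 CPM against 5.53 CPM, and Lef1 was at 0 in the members. The list summed to 235 CPM in members and 396 CPM in the others. Within the others it was 1260 CPM in barcodes with at least 5 Gkn3 UMIs, which the rule kept out of the members. It was 311 CPM in the other Vwf barcodes under that Gkn3 limit, and 76.3 CPM in barcodes with at least 3 Npr3 UMIs and a Tmem108 UMI.

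**Figure D2:**
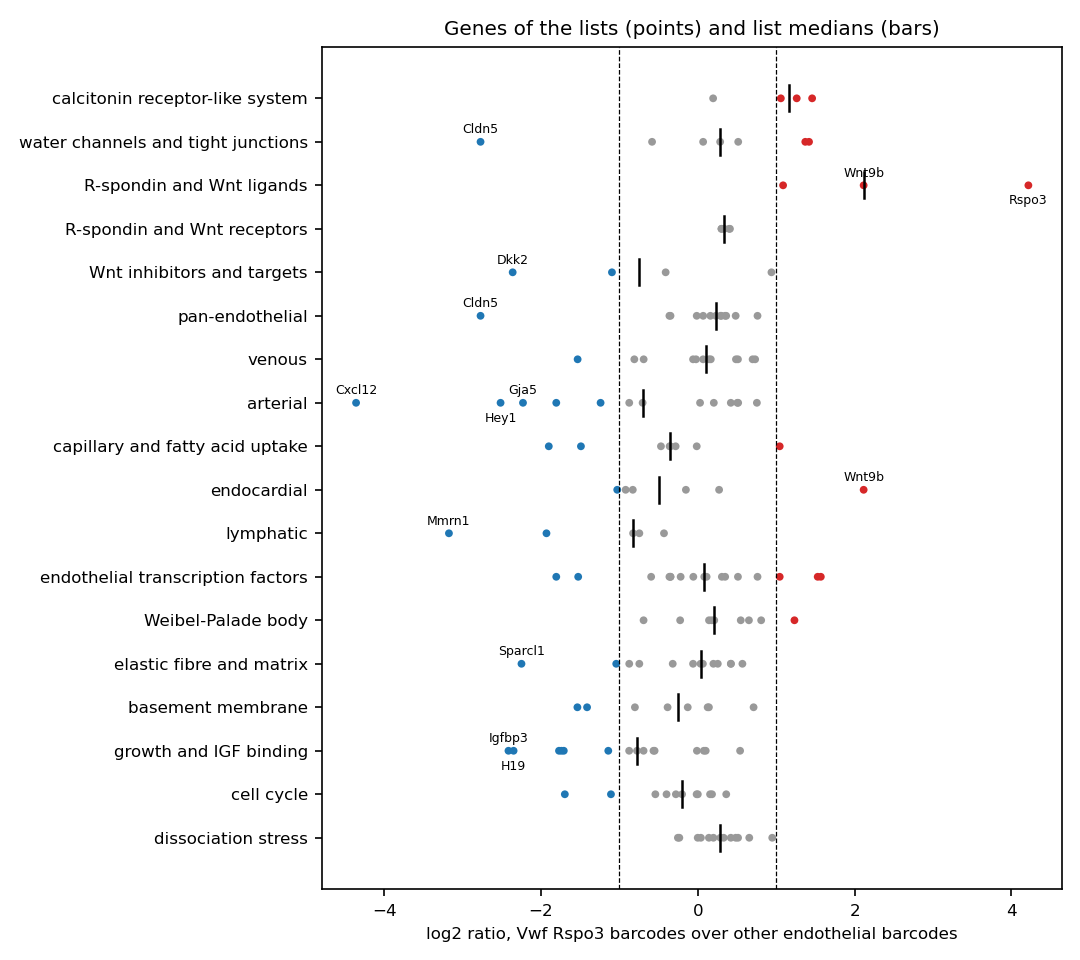
Each point is a measured gene of a list, placed by its log2 ratio of summed levels (CPM) in the 245 members over the 2264 other endothelial barcodes; black bars are list medians and dashed lines mark 2-fold. The calcitonin receptor-like list and the R-spondin and Wnt ligands have medians right of the upper 2-fold line. Rspo3 among these ligands was used by the rule. In the calcitonin receptor-like list, Ramp2 lay within 2-fold and the direction of Ramp3 depended on the choice of members. Arterial, lymphatic and growth genes have medians left of 0.

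The partners of Calcrl did not move as one. Of 4 measured genes in that list, 3 were past 2-fold higher: Calcrl, Ramp3 and Ackr3. Ackr3, a scavenging receptor for CXCL12 and adrenomedullin, was at 362 CPM (342 to 383) against 174 CPM, and was read in 91.8% of members and 68.5% of the others. It was within 2-fold of other barcodes with at least 5 Vwf and under 5 Gkn3 UMIs. Those with 0 and 1 Rspo3 UMIs were at 266 and 252 CPM. Ramp2, the main endothelial partner of Calcrl, was at 1703 CPM against 1488 CPM, a ratio of 1.15. Ramp3 was at 31.5 CPM against 13.2 CPM and was read in 11.02% of members. Its direction depended on the choice of members, since its log2 ratio of 1.26 became -0.41 when members needed at least 8 Vwf UMIs. Adrenomedullin itself (Adm) was at 9.82 CPM against 22.5 CPM.

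Junction genes went both ways. Jam2, a junctional adhesion molecule, was at 298 CPM (280 to 317) against 115 CPM, a ratio of 2.59. Other barcodes with at least 5 Vwf and under 5 Gkn3 UMIs were nearer to the members. Those with 0 and 1 Rspo3 UMIs were at 155 and 174 CPM of Jam2. Cldn5, the chief claudin of tight endothelial junctions, was at 147 CPM (134 to 160) against 1003 CPM (992 to 1013), lower by a ratio of 6.83. Single members ran from 0 to 1900 CPM of Cldn5 with a median of 69.2 CPM, and the others from 0 to 12004.5 CPM with a median of 280 CPM. Its thinned share was 33.1% of members and 65.0% of the others. The 4 remaining measured genes of the list besides Aqp1, namely Cldn11, Cldn15, Tjp1 and F11r, lay within 2-fold.

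Of 13 arterial genes measured, 5 were past 2-fold lower in the members, 8 lay within 2-fold and none was past 2-fold higher, with a median log2 ratio of -0.70 against 0.06 over all genes. The summed level of the list was 5941 CPM in members and 5751 CPM in the others. Cxcl12, the chemokine of arterial and stromal cells, was at 4.76 CPM (2.72 to 7.73) against 101 CPM (97.4 to 104), and no member held more than 1 UMI of it while 1 of the others held 117. Gja5, the connexin of arterial endothelium, was at 18.5 CPM (14.1 to 23.7) against 87.2 CPM, Hey1 at 5.95 CPM against 34.9 CPM, and the transcription factor Sox17 at 24.4 CPM against 85.8 CPM. Efnb2, the arterial ephrin, was within 2-fold at 94.0 CPM against 92.3 CPM, as were Nrp1, a VEGF co-receptor, at 492 CPM against 347 CPM, the Notch ligand Jag1 at 122 CPM against 85.7 CPM and the kinase Bmx at 138 CPM against 82.2 CPM. The others include 251 barcodes with at least 5 Gkn3 UMIs, which the rule kept out of the members and in which Gja5 was at 303 CPM. In the 822 other Vwf barcodes, which also had under 5 Gkn3 UMIs, Cxcl12 was at 32.4 CPM, Gja5 at 53.3 CPM, Hey1 at 18.2 CPM and Sox17 at 48.97 CPM.

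Of 12 venous genes measured, none was past 2-fold higher and 1, Lrg1, was lower (median log2 ratio 0.11). Nr2f2, a factor of venous identity, was at 207 CPM (192 to 223) against 146 CPM, and Ephb4, the receptor of venous endothelium, at 199 CPM (184 to 214) against 120 CPM. Plvap, the diaphragm protein of fenestrated and venous vessels, was at 1071 CPM against 660 CPM. The apelin receptor Aplnr was at 122 CPM against 117 CPM. Other genes of the venous list were lower in the members. The log2 ratio was -0.81 for Prss23, -0.69 for Nrp2 and -1.53 for Lrg1. The lymphatic genes Mmrn1 and Lyve1 were past 2-fold lower among 5 measured, at 6.25 CPM against 57.7 CPM and at 24.7 CPM against 94.7 CPM, and Prox1, which defines lymphatic endothelium, was at 41.7 CPM against 56.4 CPM.

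Among capillary genes, 1 of 8 measured was higher and 2 were lower. Fabp5, a fatty acid binding protein, was at 760 CPM against 2136 CPM, and Fabp4 was within 2-fold at 2035 CPM against 2476 CPM. Endocardial genes held 1 higher (Wnt9b) and 1 lower (Tmem108) of 6 measured. Npr3, the natriuretic peptide clearance receptor found on endocardium, was at 71.7 CPM (63.0 to 81.4) against 128 CPM, and 22 of 245 members (8.98%) met a rule of at least 3 Npr3 UMIs with a Tmem108 UMI, against 454 of 2264 others (20.1%).

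Of 9 measured genes of the Weibel-Palade body and its cargo, only Vwf, used by the rule, was past 2-fold (list median 0.21). Selp, the selectin stored beside VWF, was at 40.5 CPM (34.0 to 47.9) against 36.8 CPM. Edn1, which encodes endothelin 1, was at 409 CPM against 280 CPM, and its processing enzyme Ece1 at 490.5 CPM against 312 CPM. Rab27b, a small GTPase of secretory granules, was outside the list and was at 163 CPM (149 to 177) against 45.2 CPM, a ratio of 3.61. None of 8 measured coagulation genes and none of 10 of the VEGF and angiopoietin list passed 2-fold.

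Of 17 endothelial transcription factors measured, 3 were past 2-fold higher (Gata4, Tbx20 and Meox2) and 2 lower (Sox17 and Hand2), with a list median of 0.08. Gata4, a zinc-finger factor of cardiac lineages, was at 133 CPM (121 to 146) against 44.98 CPM and was read in 67.3% of members and 35.8% of the others. Tbx20 was at 38.1 CPM (31.8 to 45.3) against 13.2 CPM. Hand2, also a factor of the developing heart, lay the other way at 14.6 CPM against 42.4 CPM, and Gata6 was within 2-fold at 157 CPM against 146 CPM. Tbx18, a T-box factor of the sinus venosus and epicardium from the list of nodal genes, was at 71.4 CPM (62.7 to 81.1) against 18.9 CPM, a ratio of 3.79, and was read in 48.2% of members and 14.1% of the others. Barcodes without Pecam1 or Cdh5 carried Tbx18 in 43.5% of cases. The other nodal factors Shox2, Tbx3 and Isl1 were at 8.63, 0.893 and 0.893 CPM in the members.

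Of 15 genes of growth and IGF binding measured, 6 were past 2-fold lower, 9 lay within 2-fold and none was past 2-fold higher, with a list median of -0.78. The imprinted, fetally expressed H19 was at 458 CPM (435 to 481) against 2334 CPM (2318 to 2350), and its neighbour Igf2 at 163 CPM against 534 CPM. Single members had a median H19 of 174 CPM with a highest value of 10946 CPM, and the others a median of 535 CPM with a highest value of 20944 CPM. Cdkn1c, an imprinted inhibitor of the cell cycle, was at 133 CPM against 454 CPM, Dlk1 at 15.5 CPM against 52.2 CPM, Igfbp3 at 11.01 CPM against 59.5 CPM and the clearance receptor Igf2r at 49.1 CPM against 109 CPM. Meg3, a maternally expressed non-coding RNA from the same imprinted region as Dlk1, lay the other way at 1735 CPM (1691 to 1781) against 619 CPM, so these imprinted genes did not share a direction. Of 11 cell cycle genes, Ccnb2 and Ccnd1 were past 2-fold lower, and at least 2 UMIs of Mki67 or of Top2a were read in 19 of 245 members (7.76%) and 200 of 2264 others (8.83%).

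The 15 genes outside the lists named by rule as highest included Col6a3, a collagen VI chain, at 193 CPM (178 to 208) against 36.7 CPM, and the proteoglycan Vcan at 281 CPM (263 to 299) against 74.0 CPM. Inhba, the beta subunit of activin A, was at 182 CPM (168 to 197) against 53.9 CPM, and Pla2g12a, a secreted phospholipase, at 258 CPM (241 to 276) against 79.6 CPM. Tgfb2, from the BMP and TGF-beta list of which it was the only 1 past 2-fold among 11, was at 191 CPM (176 to 206) against 71.2 CPM. The others named as highest were Camk4, Rnf165, Rab27b, Lhx6, Bmyc, Tnfsf10, Meg3, Nt5e, Tmtc2, P4ha3 and Ncam1, with ratios from 2.49 to 3.99. Nt5e and Ncam1, at 92.6 and 230 CPM, were not above the 251 barcodes with at least 5 Gkn3 UMIs, at 120 and 241 CPM. Inhba, Camk4, Rab27b, P4ha3, Tmtc2 and Meg3 were above those barcodes by ratios of only 1.63, 1.66, 1.96, 1.52, 1.32 and 1.08. The rest of the 15 were past 2-fold above them. Lhx6 and P4ha3 lay within 2-fold of the 822 other Vwf barcodes, at ratios of 1.76 and 1.82. Inhba was also within 2-fold of barcodes with at least 3 Npr3 UMIs and a Tmem108 UMI, at 1.86. Crispld2, a secreted protein chosen after its values were seen, was at 40.5 CPM (34.0 to 47.9) against 4.25 CPM. Sema3f, a secreted repellent of vessels, was at 98.5 CPM against 36.6 CPM.

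The summed level of elastin itself did not differ by 2-fold, but its single-barcode medians did. Eln was the most abundant of the genes described, summing to 16007 CPM against 13415 CPM. Its median was 15978 CPM in members and 4759 CPM in the others, whose highest value was 101820 CPM. By summed level, 2 of 13 measured matrix genes, Sparcl1 and Col8a1, were past 2-fold lower. Both chains of collagen IV, Col4a1 and Col4a2, were lower, at 81.8 and 53.9 CPM against 238 and 144 CPM, while the basement membrane proteoglycan Hspg2 was at 567 CPM against 346 CPM. Of the 10 named as lowest, Tgfbi was at 10.4 CPM against 83.6 CPM, Enpp2, the enzyme autotaxin, at 13.99 CPM against 84.9 CPM, and Postn, which encodes periostin, at 38.7 CPM against 165 CPM. Pard6g, Serpinf1, Trf and Fgl2, also among these 10, were lower by ratios of 4.05 to 5.75. The log2 ratio of Trf, -2.06, was -0.75 with the rule on scaled counts and so short of 2-fold. Against only the 822 other Vwf barcodes, Fgl2, Pard6g and Enpp2 lay within 2-fold. They were at 26.8, 8.63 and 13.99 CPM in members and 34.6, 11.8 and 27.6 CPM in those barcodes. Tgfbi, Postn, Serpinf1 and Trf were past 2-fold lower there too. Barcodes with at least 5 Gkn3 UMIs were as low in Tgfbi, Trf and Postn, at 11.1, 22.2 and 28.8 CPM, but had 155 CPM of Serpinf1. In members these 4 genes were at 10.4, 21.4, 38.7 and 13.1 CPM. Barcodes with at least 3 Npr3 UMIs and a Tmem108 UMI had 12.2 CPM of Serpinf1. They were past 2-fold above the members for Tgfbi, Trf and Postn.

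RNA of other cell types was present in both sets and touches some of these counts. The 7 cardiomyocyte markers summed to 1494 CPM in members and 1003 CPM in the others, against 13941 CPM in barcodes without Pecam1 or Cdh5, and Nppa was past 2-fold higher in the members (28.3 CPM against 12.9 CPM). Without the 4 members and 51 others that had at least 2% of their UMIs on markers of other types, the sums were 435 and 479 CPM and the Nppa log2 ratio was 0.00; with the rule on scaled counts it was -0.71. Airway secretory genes summed to 379 CPM in members and 3929 CPM in the others, and Scgb3a1, Wfdc2 and Cbr2 were among the 10 named as lowest. Without 7 others that held at least 100 airway UMIs each, the airway sum of the others was 383 CPM. Fibroblast markers summed to 1243 CPM and 1790 CPM, and leukocyte markers to 9.23 CPM and 26.5 CPM with Ptprc at 0 in the members. Under the 2% limit, 241 members remained, and 86 genes were past 2-fold higher and 89 lower.

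The members were next set beside 3 other sets of endothelial barcodes of the library. The nearest was made of 822 barcodes with at least 5 Vwf UMIs but under 2 of Rspo3 and under 5 of Gkn3. The other two were 251 barcodes with at least 5 Gkn3 UMIs, and 454 with at least 3 of Npr3 and 1 of Tmem108, of which 147 also belonged to the first set and 3 to the second. Some barcodes of the Gkn3 set met the Vwf and Rspo3 limits and were kept out of the members by the Gkn3 limit alone. Among them was 1 with 30 Vwf and 48 Rspo3 UMIs, so likeness to this set is partly likeness to such barcodes. Median depths of the 3 sets were 13563, 17869 and 13024 UMIs. Against the Vwf set, 81 of 5711 genes (1.42%) were past 2-fold higher in the members and 57 (0.998%) lower. Against the Gkn3 set they were 188 (3.31%) and 153 (2.69%) of 5685, and against the Npr3 Tmem108 set 285 (4.91%) and 154 (2.65%) of 5808. The members therefore lay nearest to the Vwf barcodes by the number of genes past 2-fold. These share both the Vwf and the Gkn3 limit of the rule, so the order of the sets is a description.

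**Figure D3:**
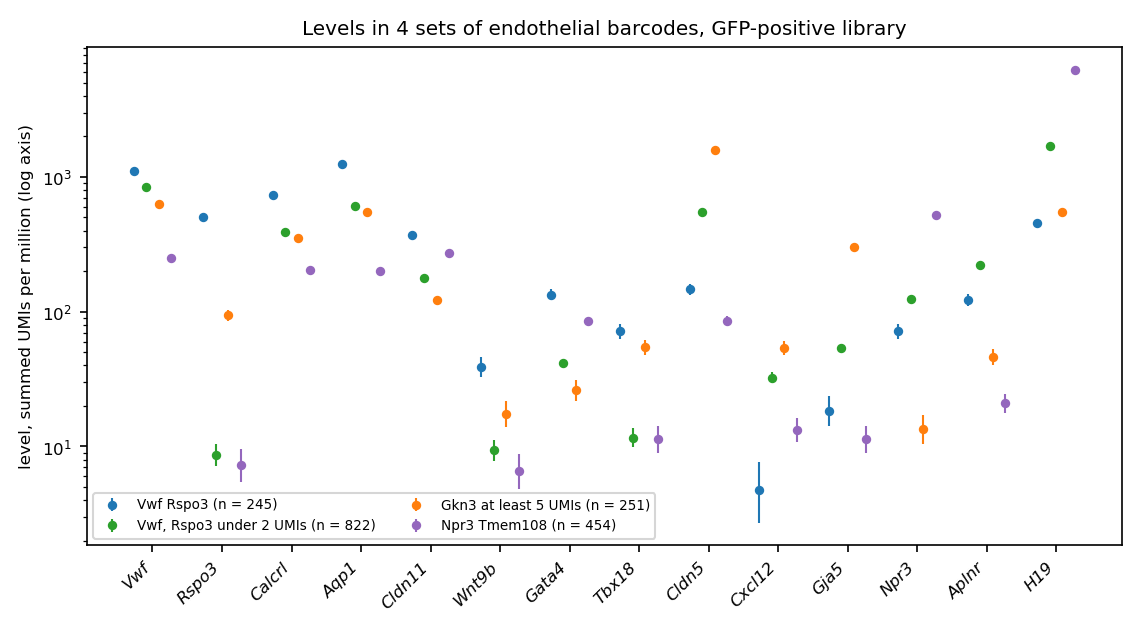
Points are summed levels in CPM (log axis) of 14 genes in the members and in 3 other sets of endothelial barcodes of the same library, with exact Poisson 95% intervals for counting error. Aqp1 and Calcrl are highest in the members, Cldn5 and Gja5 in the Gkn3 set, and Npr3 and H19 in the Npr3 Tmem108 set.

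Aqp1 was above all 3 sets by more than 2-fold: 1237 CPM against 603, 546 and 201 CPM, in the order Vwf, Gkn3 and Npr3 Tmem108. Calcrl, at 735 CPM against 392, 351 and 204 CPM, was past 2-fold above the latter sets and 1.87-fold above the Vwf set. Gata4, at 133 CPM, stood above 41.3 and 26.1 CPM in the Vwf and Gkn3 sets, and was nearer to the Npr3 Tmem108 set at 84.6 CPM. Tbx18, at 71.4 CPM, was near the Gkn3 set at 54.4 CPM and above the other two at 11.6 and 11.3 CPM. Cldn11, at 373 CPM, was above 179, 121 and 271 CPM. The nearest set in level was thus the Vwf set for Aqp1 and Calcrl, the Npr3 Tmem108 set for Gata4 and Cldn11, and the Gkn3 set for Tbx18.

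Cldn5 set the members and the Npr3 Tmem108 barcodes apart from the rest, at 147 and 85.5 CPM, with 547 CPM in the Vwf set and 1574 CPM in the Gkn3 set. For H19 the members, at 458 CPM, were near the Gkn3 set at 547 CPM, whereas the Vwf set was at 1697 CPM and the Npr3 Tmem108 set at 6184 CPM. Meg3 was near equal in members and the Gkn3 set, at 1735 and 1613 CPM, and was 506 and 206 CPM in the other two. The apelin receptor Aplnr was highest in the Vwf set, at 221 CPM against 122 CPM in the members.

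More than 2-fold above all 3 sets were 19 of 2982 genes that could be compared in this way. They were Aqp1, Col6a3, Vcan, Rnf165, Pla2g12a, Bmyc, Nkd1, Fndc1, Tnfsf10, Bmp2k, Swt1 and Dnaja4, and 7 genes of muscle cells (Actc1, Myl4, Myl7, Tnnt2, Tnnc1, Csrp3 and Cryab). The muscle genes stood beside the cardiomyocyte sum given above, of which 3 members held at least 100 UMIs each. One gene, Smoc1, was more than 2-fold below all 3.

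The level of Rspo3 was graded within Vwf barcodes and had no gap at the limit of 2 UMIs. Among barcodes with at least 5 Vwf and under 5 Gkn3 UMIs, 707 had no Rspo3 UMI, 115 had 1, 55 had 2, 30 had 3, 69 had 4 to 7 and 91 had 8 to 44. These steps, and the genes shown for them, were chosen after the values were seen. Aqp1 was at 573, 794, 1041, 1078, 1188 and 1463 CPM over the 6 steps. Calcrl went from 386 CPM at no UMI to 821 CPM at the highest step and Meg3 from 473 to 2304 CPM. Cldn5 ran the other way, at 569, 407, 302, 174, 105 and 58.9 CPM.

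Just outside and just inside the limit, barcodes with 1 and 2 Rspo3 UMIs had 431 and 649 CPM of Calcrl, 93.5 and 164 CPM of Col6a3 and 1072 and 355 CPM of H19. The next step, of 30 barcodes with 3 UMIs, had 739 CPM of Calcrl but 84.7 CPM of Col6a3 and 800.3 CPM of H19, so that for Col6a3 and H19 the step at the limit was not kept. The barcodes with 1 Rspo3 UMI thus lay between those with none and the members for Aqp1, Calcrl and Cldn5. Rnf43 was at 0.955 CPM (0.477 to 1.71) with no Rspo3 UMI and at 24.5 CPM (16.6 to 35.02) in the highest step, and Pla2g12a at 66.0 and 371 CPM. Eln changed little, from 15024 to 13990 CPM. Wnt16 was uneven, at 8.60, 16.7, 29.4, 94.2, 29.1 and 125 CPM.

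**Figure D4:**
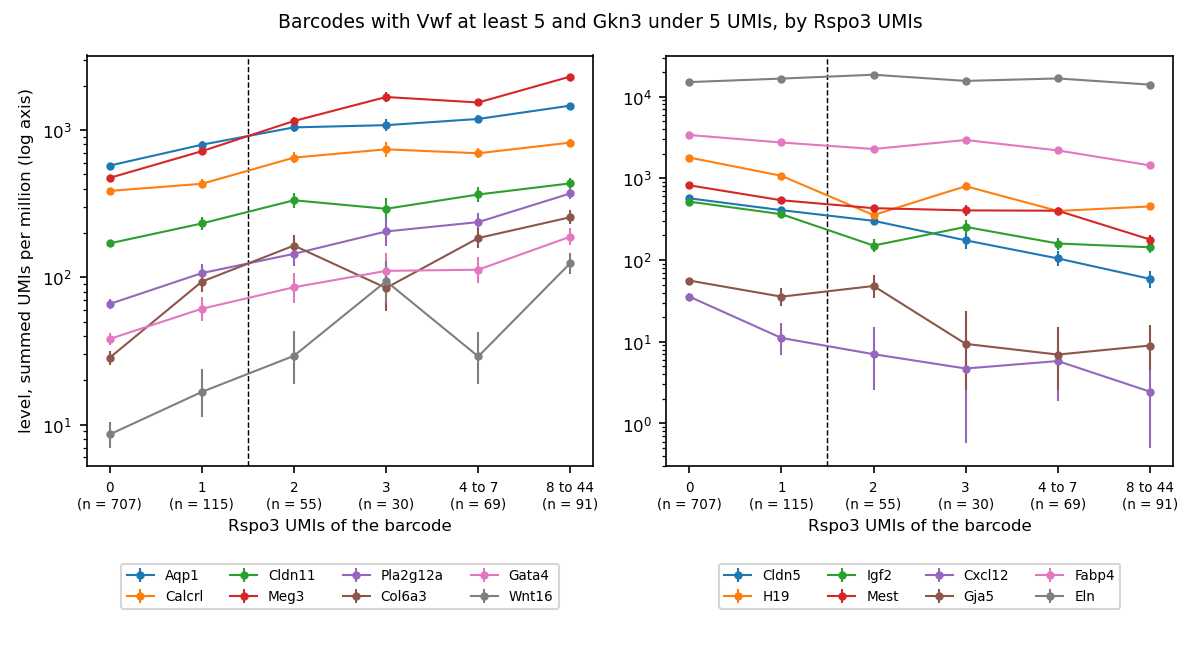
Summed levels in CPM (log axis) of 16 genes in barcodes with at least 5 Vwf and under 5 Gkn3 UMIs, by the number of Rspo3 UMIs; bars are exact Poisson 95% intervals and the dashed line is the limit of 2 UMIs. Aqp1 and Pla2g12a are higher and Cldn5 is lower at every further step, from 573 to 1463, 66.0 to 371 and 569 to 58.9 CPM.

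The limit on Vwf was looked at in the same way. Among barcodes with at least 2 Rspo3 and under 5 Gkn3 UMIs, 32 had 0 to 2 Vwf UMIs, 25 had 3 to 4, 81 had 5 to 9, 110 had 10 to 19 and 54 had 20 to 68. Just outside and just inside the limit, at 3 to 4 and 5 to 9 UMIs, Aqp1 was at 1033 and 1037 CPM, Calcrl at 434 and 674 CPM, and Tgfb2 at 377 and 230 CPM. Barcodes with 0 to 2 Vwf UMIs differed more, with 437 CPM of Aqp1, 841 CPM of Cldn5 and 2616 CPM of H19. Wnt16 was at 29.0, 102, 145, 58.9 and 22.1 CPM over the 5 steps. Its summed level was thus highest at 5 to 9 Vwf UMIs and not in the barcodes with most Vwf UMIs. The steps also differed in median depth, at 10589.5, 9240, 8971, 11365.5 and 17364.5 UMIs, and Wnt16 was read in only 53 members.

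The members were not uniform, and several genes varied with the level of Eln. Split into quintiles of 49 barcodes by their Eln level, a split chosen after the values were seen, they ran from 3223 CPM in the lowest quintile to 33428 CPM in the highest, with median depths of 15638, 11431, 9438, 10516 and 10499 UMIs. Other elastic fibre genes went with Eln: the fibulin Fbln5 was at 143 CPM in the lowest quintile and 1308 CPM in the highest, Fbln2 at 1392 and 3606 CPM, and the proteoglycan Bgn at 639 and 2139 CPM. Vwf was at 555 CPM in the lowest quintile and between 1180 and 1404 CPM in the other 4. Rspo3 had no such order, at 344, 755, 495, 593 and 421 CPM.

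The lowest Eln quintile had a different set of genes. Wnt16 was at 180 CPM there and at 75.5, 47.3, 16.2 and 4.68 CPM in the further quintiles. Npr3 was at 207 CPM against 19.7, 18.9, 12.9 and 49.9 CPM, Igfbp5 at 1353 CPM against 170 to 381 CPM, and Tbx20 at 100.5 CPM against 31.2 CPM in the second quintile and 6.24 CPM in the highest. Gata4 was at 205 CPM in the lowest quintile and 84.2 CPM in the highest, and H19 at 1093 and 235 CPM. Tbx18 and Col6a3 were low where these were high: Tbx18 was at 5.84 CPM (1.90 to 13.6) in the lowest quintile and 79.5 to 110 CPM in the rest, and Col6a3 at 18.7 CPM against 363 CPM in the highest. The higher summed levels of Wnt16 and Tbx20 in the members thus came mainly from barcodes low in Eln, and that of Tbx18 from the other 4 quintiles.

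**Figure D5:**
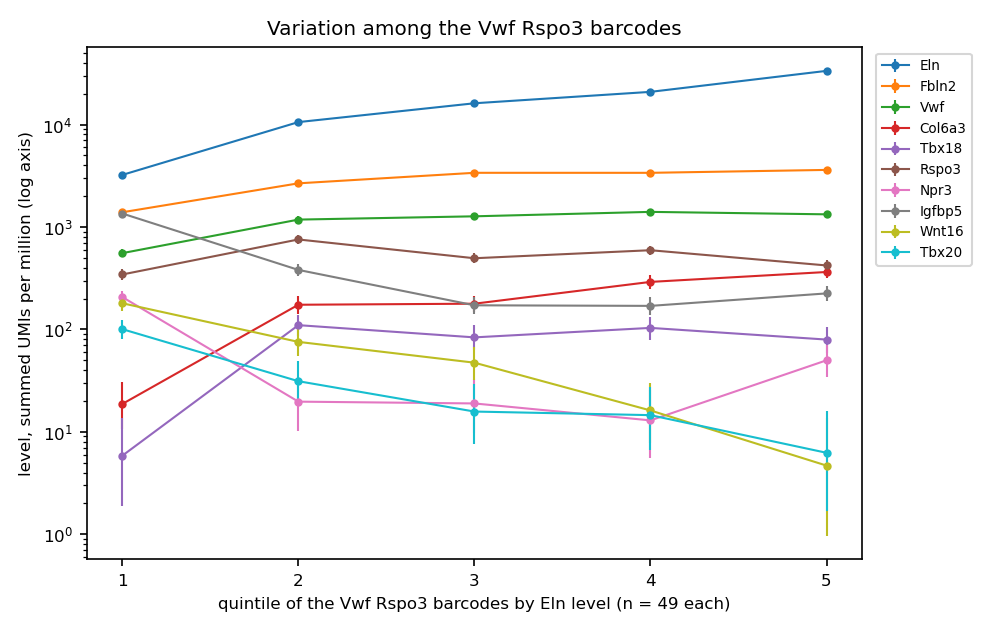
Summed levels in CPM (log axis) of 10 genes in quintiles of the members ordered by Eln level, 49 barcodes each, with exact Poisson 95% intervals for counting error. Wnt16, Tbx20, Npr3 and Igfbp5 are highest in the first quintile, where Tbx18 and Col6a3 are lowest; Rspo3 has no order.

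Over single members, log levels of Eln and Bgn had a Pearson r of 0.71 and those of Vwf and Eln 0.54 (n = 245 barcodes of 1 library, which share a depth term). Between Eln and Igfbp5 the r was -0.54, and between Wnt16 and Fabp4 -0.46. Rspo3 had an r of 0.24 with Vwf and of 0.08 with Wnt16. The log level of Rspo3 had an r of -0.53 with the log of a barcode's total UMIs, larger in size than with any of 2992 genes compared, and the rule set a fixed number of UMIs whatever the depth. With the rule applied to counts scaled to 10000 UMIs, 193 barcodes were members, and Rspo3, Calcrl, Aqp1, Wnt9b, Wnt16, Gata4 and Tbx18 were each still past 2-fold higher and Cldn5 lower.

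The same rule found 0 of 189 endothelial barcodes in the GFP-negative library, which allows a share of up to 1.59% by 3 counts or 1.93% by the exact interval, and 2 of 252 (0.794%, 0.0963% to 2.84%) in RA. At 1 Rspo3 UMI or more the counts were 587 of 2509 (23.4%), 0 of 189 and 4 of 252 (1.59%), with median depths of 11925, 10282 and 11578 UMIs. The GFP-negative library was not without Rspo3: it held 378 UMIs, of which 89.7% lay in barcodes with no UMI of Pecam1 or Cdh5. Summed over endothelial barcodes of the 3 libraries, Vwf was at 528, 28.2 and 57.1 CPM (GFP-positive first, then GFP-negative, then RA), Aqp1 at 532, 161 and 145 CPM, and Cldn11 at 271, 12.2 and 15.6 CPM. The gap was smaller for Cldn5, at 926, 602 and 427 CPM.

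The 2 RA barcodes that passed the rule had 13 and 10 UMIs of Vwf and 2 each of Rspo3 in 24263 and 9442 total UMIs. They carried 1 UMI each of Calcrl, 5 and 1 of Aqp1, and none of Cldn11, Wnt16 or Wnt9b. Their Eln counts were 8 and 36 UMIs, against a lowest count of 7 and a median of 171 in the members. Both lay below the medians of the members, which were 8 UMIs of Calcrl and 14 of Aqp1. Since the libraries differ in the sort and each is a single library, the sort and the library cannot be told apart as the source of these gaps.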

How the data were processed

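Single-cell RNA libraries were made with the 10x Genomics kit per the labels. The authors deposited UMI counts per gene and barcode, and all stored values were whole numbers. Reads were counted with Cell Ranger on mm9, per the submitters' processing notes; the version of Cell Ranger is not given in the sources used here. Each matrix held 28001 features, 3 of them added reporters. Barcodes with at least 500 genes were kept, no doublet caller was run, and doublets may remain. UMIs were summed over barcodes and given as counts-per-million (CPM). Intervals at 95% are exact Poisson for levels and Clopper-Pearson for shares. They cover counting error only. With 1 library a group no test was run. A gene was measured at a mean of at least 20 CPM over both sets and counted as higher or lower past 2-fold; 0.5 UMIs were added to each sum for log2 ratios.

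The members and the 38 gene lists (363 genes, 362 found; 218 measured) were chosen with earlier results of these data known. All list genes could be named. Outside the lists, the 15 highest and 10 lowest ratios were named among genes at 50 CPM or more and read in at least 25% of barcodes of the higher set. Other genes named were chosen after their values were seen. Python 3.11.15, numpy 2.4.6, scipy 1.17.1, pandas 2.3.3 and matplotlib 3.10.9 were used, and the steps were tested on simulated data.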

Additional observations from a re-analysis of the deposited data

How the results depend on the processing

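No paired analysis was possible because each group was 1 library and the labels give no replicate numbers. The number of members was 270 with at least 3 Vwf UMIs, 191 with at least 8, 360 with at least 1 Rspo3 UMI, 190 with at least 3 and 193 with the rule on counts scaled to 10000 UMIs. It was 0 when barcodes with 5 or more UMIs of other cell types were left out, so no ratio could be had there. With a mean of at least 5 CPM as the filter, 186 genes were higher and 304 lower, and past 1.5-fold the counts were 309 and 218. Over 11 alternatives the log2 ratio was 1.40 to 1.54 for Calcrl, 1.37 to 1.60 for Aqp1 and -3.79 to -2.74 for Cldn5. It was 2.31 to 3.13 for Wnt16, 1.52 to 2.45 for Wnt9b, 1.41 to 1.70 for Gata4, 1.89 to 2.90 for Tbx18 and 1.02 to 1.63 for Tbx20. Ramp3 turned to -0.41 with at least 8 Vwf UMIs and -0.43 with scaled counts. With scaled counts Nppa also turned to -0.71, Msln to 0.0798, Scgb1a1 to 0.14, Cyp2f2 to 0.0884, Scgb3a1 to 0.0769 and Wfdc2 to 0.38. Under 2% UMIs of other types, an alternative added after the data were seen, Scgb1a1 was 0.0652 and Wfdc2 0.12. With others under 100 airway UMIs, added likewise, they were 0.0793 and 0.0570. The causes were not tested. Of 84 named genes past 2-fold, 20 were short of it or turned in at least 1 alternative (6 higher and 14 lower in the members). Besides those that turned, the log2 ratios nearest to 0 were 0.86 for Wnt2, 0.94 for Cyp1b1, 0.99 for Meox2 and 0.99 for Ackr3. Among the lower genes they were -0.89 for Tmem108, -0.89 for Sfrp1, -0.73 for Col8a1, -0.97 for Igf2r, -0.82 for Ccnb2, -0.16 for Upk3b, -0.02 for Scgb3a2, -0.78 for Cbr2 and -0.75 for Trf.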
